A study of Mus musculus with 12 samples.

Results

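The cathepsins and cystatins studied here are 10 mouse genes, 8 that encode cathepsins (Ctsa, Ctsb, Ctsc, Ctsd, Ctsh, Ctsl, Ctss and Ctsz) and 2 that encode cystatins (Cstb and Cst3). They were chosen by symbol, with earlier results of these data known, and all 10 were found among the 47643 gene identifiers of the deposited tables. Every one passed the filter on low values in every comparison. Sorted peritoneal macrophages (Mϕ) were sequenced at day 6 of a peritonitis started with zymosan A (5 mg/kg), in female C57BL/6 mice that were 8 to 12 weeks old by the study's methods. From day 1 on, the mice had daily intraperitoneal doses of CIII (25 mg/kg), an inhibitor of the prostaglandin E2 synthase mPGES-1, or of vehicle (VEH; Tween-80 and carboxymethyl-cellulose in saline). Each treatment gave 3 libraries of F4/80lo Mϕ, gated as CD45+, CD11b+, low for F4/80 and MerTK, Ly6G- and MHCII+, and 3 libraries of F4/80hi Mϕ, gated as CD45+, CD11b+ and high for F4/80 and MerTK, 12 libraries in all. By the study's methods, CD11c+ MHCII+ dendritic cells had been gated out before both Mϕ gates, and Ly6G+ neutrophils before the F4/80lo gate. All mice, controls included, carried the zymosan inflammation, so no library shows the resting peritoneum. The sources used here do not say which libraries came from 1 mouse, and p-values measure the spread between these libraries, which may be technical.

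Cathepsins are proteases of the lysosome, the acidic compartment in which a Mϕ breaks down what it has engulfed. They are made as inactive precursors, carried to the lysosome mostly through the mannose 6-phosphate route and activated there by cleavage. Most are cysteine proteases of the papain family, whereas cathepsin D is an aspartic protease and cathepsin A a serine carboxypeptidase. Cystatins are small proteins that block the cysteine cathepsins, cystatin B inside the cell and cystatin C mainly after secretion. In antigen-presenting cells some cathepsins also trim the invariant chain of MHC class II.

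The libraries held 426624 to 3389448 reads on genes, so that a count of 0 allows up to 3 reads, or 0.885 to 7.03 reads per 1000000 (RPM), for counting error only. No cathepsin or cystatin of the set came near that limit, because the smallest number of reads of any of them in any library was 32. Together they took 0.854% to 1.23% of the reads of F4/80lo libraries, against 1.08% to 1.89% for F4/80hi libraries. The Mϕ genes Csf1r and Lyz2 were read in all 12 libraries. Both F4/80hi libraries with replicate number 3 stood apart from their label. Adgre1, which encodes F4/80, was at 366 and 368 RPM there against 1064 to 1336 in the other F4/80hi libraries, and Gata6, a transcription factor of resident peritoneal Mϕ, was at 1.90 and 5.73 against 23.2 to 52.0. Ccr2, a receptor of blood monocytes, was at 1199 and 704 in these 2 libraries against 20.2 to 306 in the other 4. Among F4/80lo libraries, VEH 3 stood apart in MHC class II, with H2-Aa at 602 RPM against 4511 to 8397 in the other 5 and 278 to 614 in F4/80hi VEH libraries, and with H2-Ab1 at 680 against 3700.3 to 8376. Itgax, the gene of CD11c, was at 2.07 RPM in that library against 39.4 to 129.9 in the other 5. The transcript Gm42418 took 2.65% to 14.3% of the reads in the 4 libraries numbered 3 and at most 0.579% elsewhere. Values are therefore also given for numbers 1 and 2 alone. Since the F4/80hi libraries numbered 3 were set apart by these markers, wider gaps between the subpopulations without them are descriptions, not separate support. In bulk samples, fewer cells of a type and less RNA per cell cannot be told apart.

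The genes lie on 7 chromosomes of GRCm38, among them Ctsd at chr7:142375911-142388038 on the minus strand, Ctsl at chr13:64359337-64370890 on the minus strand, Ctsb at chr14:63122462-63145923 on the plus strand and Cstb at chr10:78425669-78427622 on the plus strand. RefSeq promoter sequences (GRCm38.p6, 250 bases before to 50 after the start) were held for 7 of the 10 genes (8 promoters), and none for Ctsb, Ctsh and Cstb. They were searched for the palindrome CACGTG, which reads alike on both strands and is the core of the element bound by TFEB, a factor known for switching on lysosomal genes. The motif was chosen after the values had been seen. It was present in 3 of these 8 promoters, each of a different gene, and in 7.15% of all 32851 promoters. Over all libraries Ctsd and Ctsl are the 2 genes of the set that differed most between the subpopulations. In the comparison paired by replicate number below, Ctsa did not pass, whereas Ctsb and Cstb passed but had no promoter to search. The stretches around all matches are shown with the motif in capitals.
Ctsd, chr7:142388055-142388077, minus strand, upstream of the GENCODE gene: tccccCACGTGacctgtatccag
Ctsd, chr7:142387908-142387937, minus strand, in a 5′ UTR exon: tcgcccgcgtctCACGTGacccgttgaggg
Ctsl, chr13:64370739-64370768, minus strand, in a 5′ UTR exon: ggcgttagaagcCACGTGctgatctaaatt
Ctsa, chr2:164833758-164833786, plus strand, in a 5′ UTR exon: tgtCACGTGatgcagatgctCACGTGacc
The first bases of the Ctsd copies lie 245 and 98 bases before the RefSeq start, and that of the Ctsl copy 236 bases before it. Ctsa holds 1 copy 12 bases before its start and another just after it. A match is a description of these letters only.

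**Figure D1:**
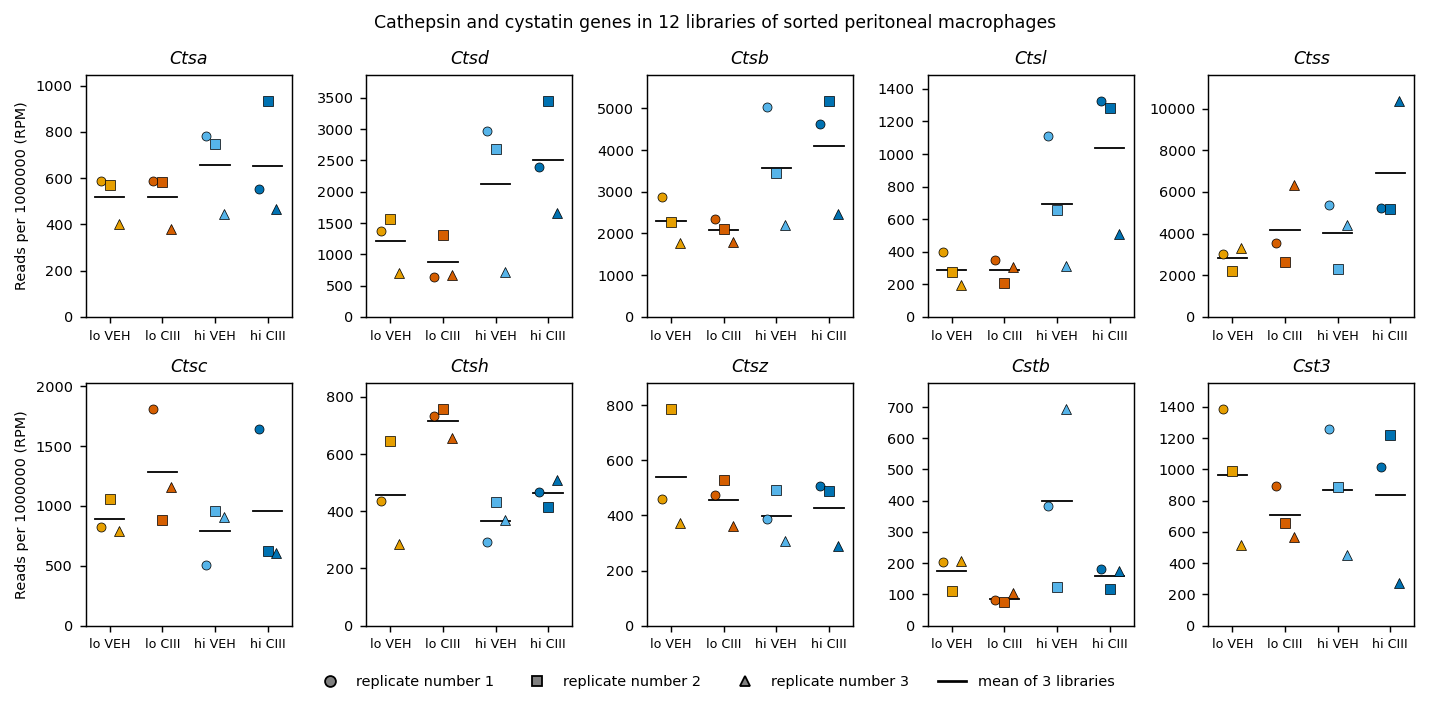
Reads per 1000000 (RPM) of the 10 genes in each of the 12 libraries (linear axes from 0), by subpopulation (lo, F4/80lo; hi, F4/80hi) and treatment, with the mean of 3 libraries as a line and the replicate number as the symbol. Ctsd, Ctsb and Ctsl sat higher in F4/80hi libraries 1 and 2 than in any F4/80lo library, while the F4/80hi libraries numbered 3 fell near or into the F4/80lo range.

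To ask whether the subpopulations differ in these genes, levels were set on 1 scale, reads per 1000000 of each library, since the authors had normalized the 2 tables separately. Ctsl, Ctsd, Ctsb and Cstb were lower in F4/80lo than in F4/80hi Mϕ once libraries of the same number were compared with each other, with log2 differences of -1.44, -1.09, -0.74 and -0.89. No label pairs libraries by number, and this pairing was taken from correlations in these same data. The exopeptidase genes Ctsc, Ctsh and Ctsz and the cystatin gene Cst3 did not pass the test with this pairing. In the main test, without the replicate number as a block, none of the 10 genes passed (limma on log2 of RPM plus 1, two-sided, Benjamini-Hochberg adjusted p under 0.05). Of 10736 genes tested 4 did (0.0373%), 3 higher and 1 lower in F4/80lo (1 and 1 under TMM scaling). Without the block but with numbers 1 and 2 alone, 2 of the 10 genes passed, Ctsl (-1.80, adjusted p = 0.000699 by limma) and Ctsd (-1.30, adjusted p = 0.0142 by limma), where 343 of all genes did (3.21%). With the block, 4 of the 10 genes passed, all lower in F4/80lo, against 582 of all genes (5.42%), of which 212 were lower (1.97%). With the block and numbers 1 and 2 alone, 1130 genes passed (10.6%), among them these 4 as well as Ctss and Ctsh. The median log2 difference of the 10 genes was -0.45, and that of all genes tested 0.07.

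Ctsl encodes cathepsin L, a potent endopeptidase that is also secreted by activated Mϕ. Its level ran from 194 to 400.4 RPM in the 6 F4/80lo libraries (median 293) and from 315 to 1329 in the 6 F4/80hi libraries (median 884). The ranges overlapped through F4/80hi VEH 3 alone, at 315, while F4/80hi CIII 3, at 508, lay above the F4/80lo range. Among numbers 1 and 2 F4/80lo reached 400.4 and F4/80hi began at 656. The log2 difference was -1.44 ± 0.35 (SE; adjusted p = 0.158 by limma) and, with the block, -1.44 ± 0.21 (adjusted p = 0.000749 by limma). Ctsl was the only one of the 10 genes that passed without the block when 1 library was left out, F4/80hi VEH 3 (log2 difference -1.68, adjusted p = 0.0216 by limma, where 124 of all genes passed, 1.15%). DESeq2 on the recovered reads called it without a block (adjusted p = 0.000727), as it did Ctsd and Ctsb (adjusted p = 0.0447 and 0.0478) among 141 genes (1.31%), whereas edgeR called none of the 3.

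Ctsd encodes cathepsin D, the main aspartic protease of the lysosome, which also activates other cathepsin precursors. Its lowest, median and highest levels were 636, 1005 and 1563 RPM among F4/80lo libraries, against 718, 2534 and 3458 RPM among F4/80hi libraries. Library F4/80hi VEH 3, at 718, was the sole F4/80hi library that lay within the F4/80lo range. The difference was -1.09 ± 0.40 on the log2 scale (SE; adjusted p = 0.391 by limma) and -1.09 ± 0.18 with the block (adjusted p = 0.00243 by limma). Among numbers 1 and 2, the F4/80lo libraries ended at 1563 and the F4/80hi libraries began at 2390.4.

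Ctsb encodes cathepsin B, an endopeptidase that can also remove dipeptides from the carboxyl end of proteins. Its F4/80lo libraries held 1782 to 2867 RPM (median 2189.8) and its F4/80hi libraries 2194 to 5188 RPM (median 4040.0). As for Ctsl and Ctsd, the subpopulations did not overlap among numbers 1 and 2, where F4/80hi began at 3454. These 3 genes are 3 of 10 without overlap in those 8 libraries, against 4.19% of all genes that were lower in F4/80lo in this way. That count leaves out the F4/80hi libraries that stood apart from their label, so it is a description. The difference was -0.74 ± 0.33 (SE; adjusted p = 0.495 by limma) and -0.74 ± 0.19 with the block (adjusted p = 0.0348 by limma), the latter close to the threshold.

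Cstb encodes cystatin B, the inhibitor that guards the cytosol against leaked cathepsins. F4/80lo libraries held 75.0 to 207 RPM of it (median 107), against 116 to 693 RPM in F4/80hi libraries (median 179). The highest library was F4/80hi VEH 3, at 693, which is 1 of the 2 F4/80hi libraries that stood apart from their label, and the subpopulations overlapped also among numbers 1 and 2. With the block the log2 difference was -0.89 ± 0.19 (SE; adjusted p = 0.0139 by limma), against an adjusted p of 0.455 without it. Among numbers 1 and 2 with the block it was -0.71 (adjusted p = 0.0250 by limma).

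Ctss encodes cathepsin S, the protease that completes invariant chain cleavage in many antigen-presenting cells. Its 6 F4/80lo libraries ran from 2189 to 6338 RPM (median 3159) and its 6 F4/80hi libraries from 2292 to 10386 (median 5202). Both highest values came from CIII libraries numbered 3. F4/80lo was below F4/80hi in 6 of 6 pairs of the same treatment and number, as it was for Ctsb, Ctsd, Ctsl and Cstb, against 3.95% of all genes. The log2 difference of -0.59 ± 0.38 (SE) did not pass (adjusted p = 0.657, and 0.104 with the block, both by limma), and passed with the block under edgeR (adjusted p = 0.0356), where 636 genes did (5.92%).

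**Figure D2:**
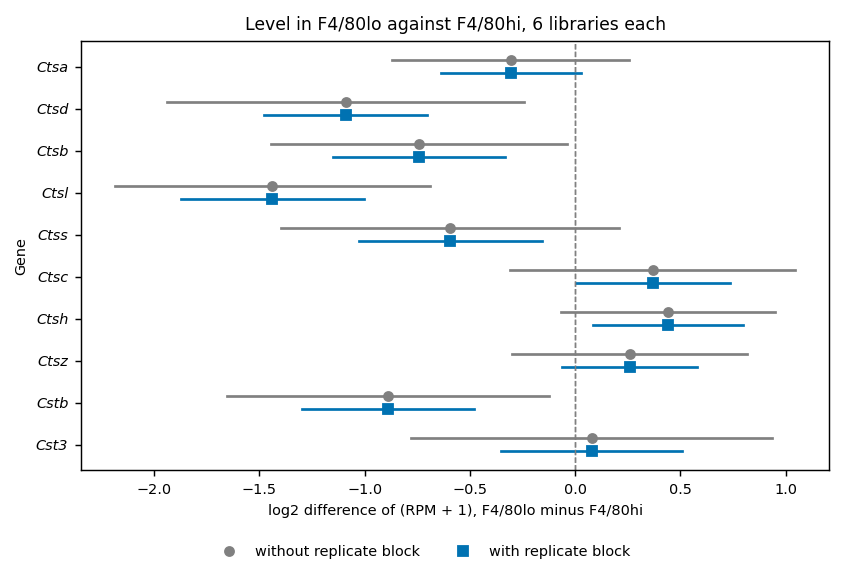
Log2 difference of (RPM + 1) between F4/80lo and F4/80hi Mϕ for the 10 genes, 6 libraries each, with 95% confidence intervals from limma (not adjusted for the number of genes), without the replicate block (grey circles) and with it (blue squares). Ctsl, Ctsd, Cstb and Ctsb lie left of 0, at -1.44 to -0.74, and the block narrows every interval.

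Like the genes above, the remaining genes overlapped between the subpopulations when all libraries were taken. Ctsh, whose product is an aminopeptidase, ran from 286 to 757 RPM in F4/80lo libraries, against 294 to 510.4 in F4/80hi libraries. Its log2 difference was 0.44 ± 0.24 (SE; adjusted p = 0.586, and 0.138 with the block, by limma). It was higher in F4/80lo in 5 of 6 pairs, the exception being VEH number 3, and among numbers 1 and 2 with the block it passed at 0.66 (adjusted p = 0.00903 by limma). Ctsc, whose product removes dipeptides and activates granule serine proteases, differed by 0.37 ± 0.32 (95% interval -0.31 to 1.05), and the carboxypeptidase gene Ctsz by 0.26 ± 0.26 (-0.30 to 0.81). Ctsa, whose product also shields lysosomal glycosidases from degradation, differed by -0.31 ± 0.26 (-0.87 to 0.26). Cst3, which encodes the secreted cystatin C, differed by 0.08 ± 0.40 (-0.78 to 0.94), and its sign turned to -0.10 under edgeR. For these 4 genes and for Ctsh the intervals without the block allow differences of either sign.

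Within each treatment the differences of Ctsl, Ctsd, Ctsb and Cstb kept their sign. In VEH libraries alone they were -1.13 for Ctsl, -0.64 for Ctsd, -0.57 for Ctsb and -0.94 for Cstb on the log2 scale, and none passed with the block (adjusted p = 0.0609, 0.227, 0.322 and 0.0935 by limma), where 146 of all genes did (1.36%). The sizes in VEH rested on single libraries. Ctsd ranged from -1.30 without F4/80hi VEH 3 to -0.28 without F4/80hi VEH 1 (-0.29 without F4/80lo VEH 3), and Cstb from -1.62 without F4/80hi VEH 2 to -0.38 without F4/80hi VEH 3. Ctsl ranged from -1.61 to -0.70 and Ctsb from -0.88 to -0.28 between the same ends as Ctsd. In CIII libraries alone Ctsl differed by -1.74 and Ctsd by -1.54, both past the threshold with the block (adjusted p = 0.00726 and 0.00748 by limma), where 83 genes passed (0.773%), 52 of them lower in F4/80lo (0.484%). Ctsb and Cstb differed by -0.91 and -0.84 and did not pass. Whether the difference itself changed with treatment is the same question as whether CIII acted unequally on the subpopulations, and that test is given with the treatment.

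The second comparison asks whether blocking mPGES-1 during resolution altered these genes within a subpopulation, on the normalized counts of each deposited table. No gene of the set passed an adjusted p of 0.05, and no gene of either table did (0 of 10718 genes tested for F4/80lo, 0.0%, and 0 of 10499 for F4/80hi, 0.0%, by limma with and without the block). At an unadjusted p under 0.05 there were 289 F4/80lo genes (2.7%) and 413 F4/80hi genes (3.93%), with 738 (6.89%) and 1187 (11.3%) under the block. DESeq2 on the recovered reads called 2 F4/80lo genes and edgeR with the block 4 (each 0 for F4/80hi), none of them a cathepsin or cystatin of the set. With numbers 1 and 2 alone, limma called 12 F4/80lo genes (0.114%), all lower under CIII and none of the set, and 0 F4/80hi genes. The values below are therefore descriptions of these libraries.

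Cstb had the lowest unadjusted p of the set in both subpopulations. In F4/80lo Mϕ its normalized counts were 199, 100.1 and 233 in VEH libraries 1 to 3 and 75.2, 73.1 and 99.5 in the CIII libraries. The CIII libraries thus all lay below the VEH libraries, but only just, with 99.5 against 100.1 at the boundary. Of all genes, 4.92% had CIII values wholly below VEH values in this subpopulation. The log2 difference was -1.02 ± 0.40 (SE), with an unadjusted p of 0.0249 and an adjusted p of 0.9996 by limma. In F4/80hi Mϕ the counts were 368, 112 and 763 in VEH libraries and 164, 103 and 168 in CIII libraries. Here the treatments overlapped, and the high VEH mean (415 ± 328, SD, n = 3) rested on library 3, one of those that stood apart from their label. The log2 difference was -1.15 ± 0.62 (SE; adjusted p = 0.992 by limma), and -0.64 without the libraries numbered 3. Cstb was lower under CIII in all 3 pairs of the same number in both subpopulations, as were 15.7% and 16.6% of all genes.

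Ctsh was the other gene whose treatments did not overlap in F4/80lo Mϕ. Its normalized counts were 424, 587 and 323 in VEH libraries and 677, 738 and 626 in CIII libraries, a log2 difference of 0.65 ± 0.35 (SE). Of all genes, 3.82% had CIII values wholly above VEH values. In F4/80hi Mϕ the means were 361 ± 67.4 and 426 ± 59.6 (SD, n = 3) with overlapping libraries, and the log2 difference was 0.25 ± 0.33 (SE). Cstb and Ctsh were therefore 2 of 10 genes without overlap in F4/80lo Mϕ (all genes, 8.73% in either direction), and none of the 10 was without overlap in F4/80hi Mϕ (10.5%).

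**Figure D3:**
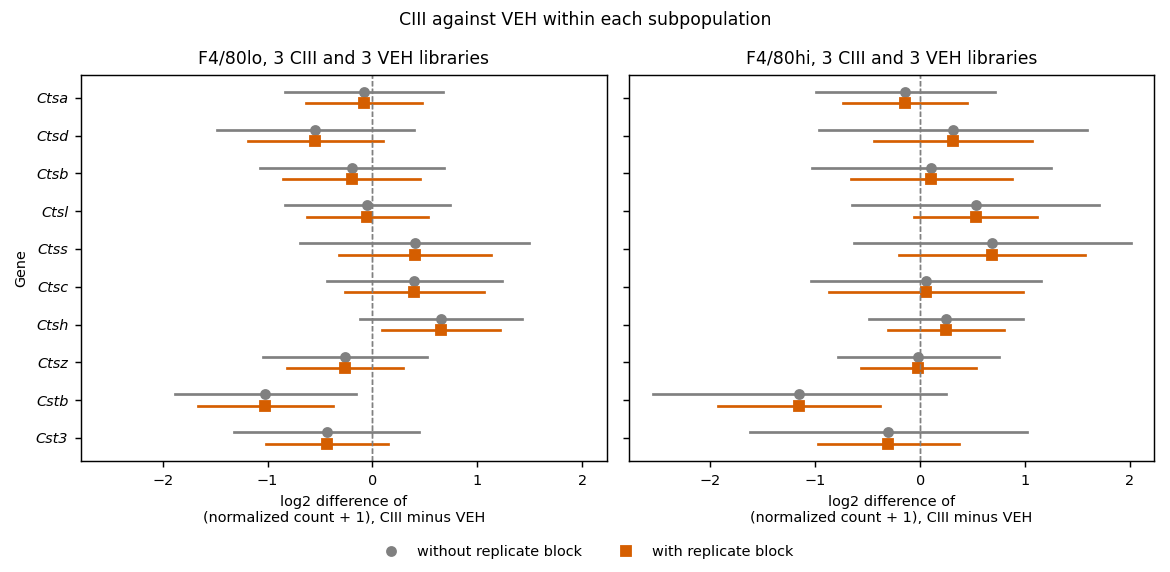
Log2 difference of (normalized count + 1) between CIII and VEH for the 10 genes within F4/80lo (left) and F4/80hi Mϕ (right), 3 libraries per treatment, with 95% confidence intervals from limma (not adjusted for the number of genes), without the replicate block (grey circles) and with it (orange squares). Cstb lies furthest left of 0 in both panels, at -1.02 and -1.15. Ctsa, Ctsz and Cst3 also lie left of 0 in both, and no difference passed after adjustment.

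Among the endopeptidase genes, Ctss ran from 1989.6 to 3719 normalized counts in F4/80lo VEH libraries and from 2561 to 6045 in the CIII libraries. Its F4/80hi counts ran from 2071 to 5159 under VEH and from 4581 to 9908 under CIII. CIII library 3 held the highest value in both subpopulations. The log2 difference of Ctss was 0.40 ± 0.50 (SE) in F4/80lo Mϕ, against 0.69 ± 0.59 in the other subpopulation. The former was 0.048 without CIII 3 and 0.16 without VEH 2, and the latter 0.32 without CIII 3 and 0.26 without VEH 2. Ctsl differed by -0.05 ± 0.36 and 0.53 ± 0.52, and Ctsb by -0.20 ± 0.40 and 0.10 ± 0.51, in the same order. For Ctsl in F4/80hi Mϕ the value was 0.13 without VEH 3 and 0.95 without CIII 3. Ctsd was at 1331, 1421 and 788 normalized counts in F4/80lo VEH libraries and at 587, 1279 and 637 in CIII libraries (-0.55 ± 0.43). In F4/80hi Mϕ it was at 2857, 2419 and 790.3 under VEH and 2161, 3069 and 1578 under CIII (0.31 ± 0.57).

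The exopeptidase genes and the secreted inhibitor did not pass either. Ctsc had F4/80lo means of 887 ± 78.3 under VEH and 1212 ± 413 under CIII (normalized counts ± SD of 3 libraries). Its F4/80hi means were 786 ± 265 and 873 ± 529. CIII library 1 was its highest in both subpopulations, at 1668 and 1483. Ctsz differed by -0.26 ± 0.36 and -0.02 ± 0.34 and Ctsa by -0.08 ± 0.34 and -0.14 ± 0.38 on the log2 scale (SE). Cst3 had means of 943 ± 385 (VEH) and 668 ± 145 (CIII) normalized counts in F4/80lo Mϕ, against 838 ± 360.2 and 753 ± 436 in F4/80hi. In pairs of the same number, Ctsd, Ctsz and Cst3 were, like Cstb, lower under CIII in all 3 F4/80lo pairs (15.7% of all genes), and Ctss and Ctsh higher in all 3 (13.1% of all genes). In F4/80hi Mϕ, Ctsl was higher in all 3 (17.2% of all genes). With 3 libraries a side the intervals are wide, for Cst3 in F4/80hi from -1.62 to 1.02.

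The response to CIII was not shown to differ between the subpopulations for any gene of the set. None of the 10097 genes tested in both passed (0.0% by limma, with 173 or 1.71% at an unadjusted p under 0.05, and 539 or 5.34% under the block). The widest gap among the 10 was that of Ctsd, whose response was lower in F4/80lo than in F4/80hi Mϕ (log2 difference of the responses -0.86, 95% interval -2.41 to 0.69; adjusted p = 0.999 by limma). Without F4/80hi VEH 3 it was -0.28, and over all left-out libraries it ran from -1.21 to -0.28. For Cstb the responses differed by 0.13 (-1.55 to 1.82).

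The neighbouring genes of the pathway were described as lists, by their levels in the subpopulations with the block. These lists and the marker lists below were chosen with earlier results of these data known. Their counts beside the share of all genes are therefore descriptions. Under CIII no gene of these lists passed in either subpopulation by limma on all libraries. With numbers 1 and 2 alone, Serpinb6a (-2.08, adjusted p = 0.0384 by limma) and, of the markers of monocyte-derived Mϕ, Retnla (-3.44) and Fcrls (-3.76) passed as lower in F4/80lo Mϕ, the last 2 named here after their values were seen. Of 6 other cathepsin genes, Ctsk and Ctso passed the filter on low values. Ctsk, the protease best known from bone-resorbing osteoclasts, was at 0 to 5.38 RPM in F4/80lo libraries against 2.89 to 27.1 in F4/80hi libraries and was lower in the former with the block (log2 difference -1.91, adjusted p = 0.0422 by limma). It did not pass without the block (adjusted p = 0.316 by limma) or with the block and numbers 1 and 2 alone (-1.52, adjusted p = 0.184 by limma). Ctso differed by -0.26. Ctsg, a granule protease of neutrophils, had 0 reads in all libraries (each allows up to 3), and the 8 cathepsin genes of the placental cluster held at most 1.35 RPM in sum. Of 13 other cystatin and stefin genes in the tables, Stfa3 alone was tested (-1.07, adjusted p = 0.262 by limma with the block). Of 4 tested serpin genes, whose products inhibit serine and some cysteine proteases, Serpinb6a was lower in F4/80lo Mϕ with the block (-1.78, adjusted p = 9.47e-05 by limma, against 0.499 without it). Of all genes tested, 1.97% were lower in F4/80lo with the block.

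Of 16 genes for lysosomal sorting, processing and regulation, 7 were lower in F4/80lo with the block and none higher (all genes, 1.97% lower and 3.45% higher), with a list median of -0.39 against 0.07 over all genes. Without the block 0 of the 16 passed, as against 0.0373% of all genes. With the block and numbers 1 and 2 alone 8 were lower, where 1130 of 10671 genes passed (10.6%), 525 of them lower. Lgmn, which encodes legumain, an enzyme that processes several cathepsins, was lower (log2 difference -1.001, adjusted p = 0.00197 by limma). Grn, the gene of progranulin, and Sort1, its sorting receptor, were lower (-0.79 and -1.39, adjusted p = 0.0211 and 0.0217 by limma). Scarb2, which carries glucocerebrosidase to the lysosome, was lower (-0.62, adjusted p = 0.0277 by limma). Tfeb, named here for the promoter motif after its values were seen, differed by 0.40 and did not pass (adjusted p = 0.567 by limma). Under CIII the medians of these 16 genes were 0.26 for F4/80lo and 0.25 for F4/80hi, against -0.05 and 0.05 over all genes. They were 0.14 and 0.12 with numbers 1 and 2 alone, and 0.15 for F4/80lo without VEH 3. The 2 with the lowest unadjusted p were Scarb2 (0.94) and Tfeb (1.01) in F4/80lo, and Scarb2 (0.87) and Igf2r (1.02), the mannose 6-phosphate receptor gene, in F4/80hi.

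Genes of MHC class II processing, where cathepsins S and L act, went the other way. All 11 were higher in F4/80lo, 9 of them past the threshold with the block (3.45% of all genes were higher), with a median of 2.35 on the log2 scale. With the block, 7 passed within VEH (median 2.81, all genes 1.36%) and 0 within CIII (median 2.09, all genes 0.773%). Without the block 0 passed on all libraries, 7 without F4/80lo VEH 3 (all genes, 0.504%), 2 without F4/80hi CIII 3 (0.0745%) and 9 with numbers 1 and 2 alone (3.21%). The F4/80lo gate used MHCII, of which H2-Aa, H2-Ab1 and H2-Eb1 encode chains, so the levels of these 3 genes are a description, and of the other 8, which were not gated on, 6 passed with the block. Cd74, the invariant chain, was higher by 2.61, H2-Eb1 by 2.58, H2-Ab1 by 2.45 and Ciita, the gene of the class II transactivator, by 2.35. Under CIII the list median was 0.74 for F4/80lo, against 1.49 for F4/80hi, and no gene passed. H2-Ab1 (1.98) and H2-Aa (1.65) had the lowest unadjusted p in F4/80hi, and H2-Eb1 (1.34) and H2-Ab1 (1.29) in F4/80lo. The F4/80lo values leaned on VEH 3, where H2-Eb1 was at 573 RPM and H2-Ab1 at 680, against 1728 and 2336 and 3700.3 and 4563 in VEH 1 and 2. Without that library H2-Eb1 differed by 0.83 and H2-Ab1 by 0.52, with a list median of 0.39. The 6 tested dendritic cell markers had positive CIII differences in F4/80lo as well, with a median of 1.09 that was 0.080 without VEH 3. None of them passed. In F4/80hi Mϕ, without CIII 3, H2-Ab1 differed by 1.18 and H2-Aa by 1.02, with a list median of 0.73. The 2 tested B cell markers, of 8 listed, also had positive CIII differences in F4/80hi, with a median of 1.76 (1.35 without CIII 3). The 1 tested dendritic cell marker was lower there (-0.95). None of these markers passed, and their part in the MHC class II values was not tested.

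**Figure D4:**
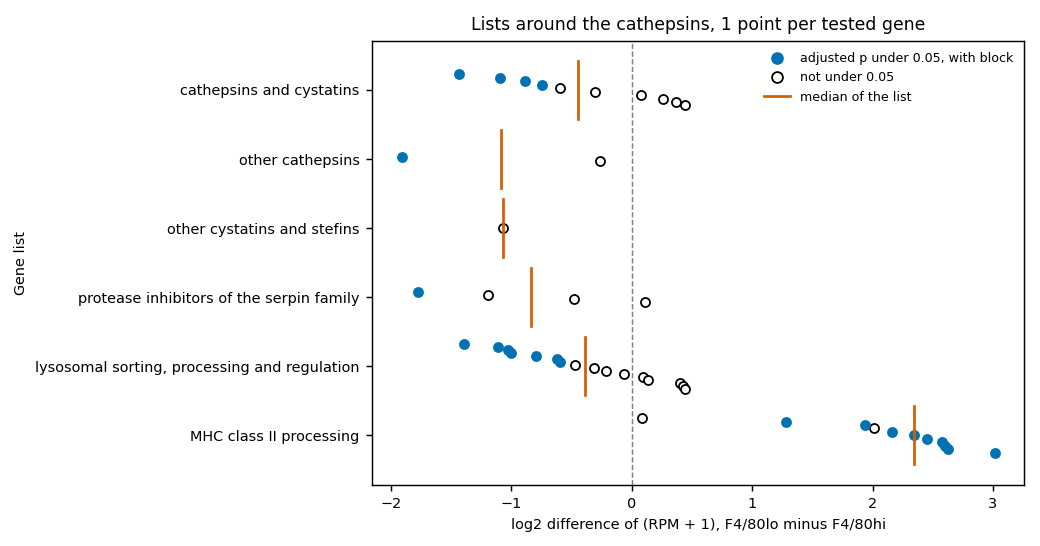
Log2 difference of (RPM + 1) between F4/80lo and F4/80hi Mϕ for each tested gene of 6 lists, filled where the adjusted p with the replicate block was under 0.05, with the list median as a line. The cathepsins and cystatins (median -0.45) and the lysosomal genes (-0.39) lie left of the MHC class II genes (2.35), 3 of which encode chains of the MHCII used in the F4/80lo gate.

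Markers of other cells moved with the subpopulations too. All 6 tested markers of dendritic cells, of 8 listed, were higher in F4/80lo Mϕ, 5 of them with the block (all genes, 3.45%). The sort had gated dendritic cells out by CD11c and MHCII. Their summed level was 7.97 (VEH 3) to 287 RPM in F4/80lo libraries, against 1.35 to 21.7 in F4/80hi libraries, and Flt3 was at 0 in 5 of the 6 F4/80hi libraries. All 10 markers of monocyte-derived Mϕ were higher in F4/80lo, 7 of them with the block (all genes, 3.45%), and all 11 of resident Mϕ were lower, 7 with the block (all genes, 1.97%). The resident list holds Adgre1 and Mertk, on whose products the sort was set, and without them 6 of 9 passed. All 3 tested markers of B cells, of 8 listed, were higher in F4/80lo, with Ighm alone past the threshold with the block (log2 difference 2.58, adjusted p = 0.0178 by limma). The summed level of the 8 was 20.7 to 199.8 RPM in F4/80lo libraries, against 0 to 72.7 in F4/80hi libraries. Of 8 general Mϕ genes, 1 was higher and 3 were lower with the block. Of the 4 not used in a gate, 1 was lower. Without the block 1 gene of the lists of dendritic cell, monocyte-derived, resident and general Mϕ genes passed, Cx3cr1, a chemokine receptor gene of the monocyte-derived list that is named here after its values were seen. Mertk, on which the gate was set, overlapped, at 193 to 450.0 RPM in F4/80lo libraries against 169 to 435 in F4/80hi libraries. Summed levels over all libraries were 23.1 to 124 for 10 markers of neutrophils, which the F4/80lo gate had left out by Ly6G, 0 to 32.8 for 8 T and NK cell markers, 0 to 16.9 for 7 eosinophil and mast cell markers and 0 to 1.20 for 6 mesothelial markers. The part of these cells in the differences of the cathepsin genes was not tested.

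Across the 12 libraries, which differ in depth and include the 3 libraries that stood apart, some of the genes varied together. Pearson's r on the log2 scale was 0.957 for Ctsb and Ctsl, 0.878 for Ctsb and Ctsd and 0.811 for Ctsd and Ctsl. The inhibitor Cstb ran against Ctsh (r = -0.756) and was nearly unrelated to Ctsd (r = -0.0062). Among 3779 genes with a mean of at least 50 RPM, the gene most like Ctsl and also most like Ctsb was Itgam (r = 0.967 and 0.960), which encodes the CD11b chain used in the gate. Gpnmb, the gene of a lysosomal and surface glycoprotein, was most like Ctsd (r = 0.967), and C3ar1, a complement receptor gene, most like Ctss (r = 0.910). The closest to the others were Rfk for Ctsa (0.942), Apobec3 for Ctsc (0.849), Klhl2 for Ctsh (0.937), Preb for Ctsz (0.932), 1110004F10Rik for Cstb (0.883) and Mcm4 for Cst3 (0.939). These are descriptions over 12 libraries of 4 groups.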

How the data were processed

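Sorted F4/80lo and F4/80hi Mϕ gave 12 libraries, 3 per subpopulation and treatment, made with a 3′ mRNA-seq kit carrying unique molecular identifiers. Per the labels and the study's methods, the authors mapped reads to GRCm38 with STAR, collapsed identifier duplicates, counted with HTSeq and scaled the counts with DESeq2. The deposited values are this normalized signal per gene, with 1 table per subpopulation. In all 12 libraries 100% of values were whole multiples of 1 read (tolerance 0.01), and whole reads were recovered for levels in reads per 1000000 (RPM) across the tables and for count tests.

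CIII against VEH was tested within each table by limma 3.58.1 (R 4.3.3, two-sided, trend) on log2 of the normalized count plus 1, for genes with a mean of at least 3, with Benjamini-Hochberg adjustment at 0.05. F4/80lo against F4/80hi was tested likewise on RPM. Alternatives were edgeR 4.0.16, DESeq2 1.42.0, TMM scaling, another pseudocount, no filter, a replicate block and left-out libraries. Deviations from group means correlated between same-numbered libraries of the 2 treatments at 0.229 to 0.728 and of the 2 subpopulations at 0.486 to 0.797, so the number was taken to pair libraries, from the data alone. Libraries of different numbers reached 0.450 between treatments, where VEH 1 of each subpopulation correlated best with CIII 2, and 0.359 between subpopulations, where every library correlated best with its own number. Genes were named as all 10 members, up to 4 genes per further list that passed (up to 2 by smallest p where none did) and the 1 most alike gene per member. Members and lists were chosen with earlier results of these data known. Gene symbols and coordinates came from GENCODE M21 and promoters from RefSeq. Scripts were tested on simulated data. Csta2 and Csta3 matched no row. The 10 genes had at least 32 reads in each library, and 3 libraries per group limit the tests.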

Additional observations from a re-analysis of the deposited data

How the results depend on the processing

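Beside the fits in the report, the counts of genes with an adjusted p under 0.05 moved as follows. For CIII against VEH in F4/80lo Mϕ (0 by limma), DESeq2 called 2 genes, numbers 1 and 2 alone 12, and edgeR with the replicate block 4. For the subpopulations (4 by limma), a pseudocount of 5 gave 11, no filter 0, edgeR 2, DESeq2 141, TMM scaling 2, numbers 1 and 2 alone 343, the replicate block 582, edgeR with the block 636 and the block with numbers 1 and 2 alone 1130. Leaving out 1 library gave 0 to 124, with 124 without F4/80hi VEH 3, 54 without F4/80lo VEH 3, 8 without F4/80hi CIII 3 and 0 without each of the other 9. Within VEH (0 by limma) DESeq2 called 20, the replicate block 146, numbers 1 and 2 alone 92 and edgeR with the block 241, and left-out libraries gave 0 to 20. Within CIII (0 by limma) they called 20, 83, 80 and 215 in the same order, and left-out libraries gave 0 to 1. Single libraries were left out without the block only. The fits with edgeR under the block and with numbers 1 and 2 under the block were chosen after seeing the data.

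Some signs on the log2 scale turned. With numbers 1 and 2 alone, CIII minus VEH was 0.033 for Ctsa in F4/80lo, and -0.030 for Ctsd, 0.13 for Ctsz and 0.016 for Cst3 in F4/80hi Mϕ. On the scale of reads per library total it was 0.025 for Ctsl in F4/80lo and 0.091 for Ctsz in F4/80hi Mϕ, and Ctsz there was 0.014 by edgeR and 0.0069 by DESeq2. Cst3 between the subpopulations was -0.10 by edgeR, -0.12 by DESeq2 and -0.20 with numbers 1 and 2 alone, with or without the block. Leaving out 1 library moved CIII minus VEH from -0.20 to 0.12 for Ctsa and -0.22 to 0.19 for Ctsl in F4/80lo Mϕ. In F4/80hi Mϕ it moved from -0.41 to 0.033 for Ctsa, -0.12 to 0.40 for Ctsb, -0.41 to 0.31 for Ctsc, -0.27 to 0.66 for Ctsd, -0.15 to 0.21 for Ctsz and -0.69 to 0.34 for Cst3. With the sign kept, in F4/80lo Mϕ it moved Ctsb from -0.28 to -0.046, Ctsc from 0.14 to 0.62, Ctsd from -0.90 to -0.34, Ctss from 0.048 to 0.67, Ctsz from -0.40 to -0.024 and Cst3 from -0.74 to -0.14, and in F4/80hi Mϕ Cstb from -1.90 to -0.52, Ctsh from 0.083 to 0.35, Ctsl from 0.13 to 0.95 and Ctss from 0.26 to 0.92. Between the subpopulations it moved Cst3 from -0.26 to 0.28. The causes were not tested. Ctsl, Ctsd, Ctsb, Ctss and Cstb stayed lower in F4/80lo under every alternative run. The block changed no call of these 10 genes for CIII against VEH or for the difference between the responses.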
